A study of Mus musculus with 6 samples.

Results

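The Hippo pathway and its YAP target genes were followed in rat ovarian tissue as 10 genes, matched by name to 10 of the 22487 genes in the deposited table. They are the kinases Stk3, Lats1 and Lats2, the scaffold Amotl2, the coactivators Yap1 and Wwtr1, the transcription factor Tead1 and the target genes Ccn1, Ccn2 and Ankrd1. Each name occurred once in the table. RNA sequencing of whole ovaries from adult female rats covered 3 libraries from animals exposed to PM2.5, fine airborne particles from a cowshed, and 3 libraries from controls with no treatment. The labels give the genotype of both groups as WT and 30 days in every title, without saying what the days count, and do not give strain, dose or route. Nothing in the labels ties each library to an animal of its own, so the p-values reflect only sample-to-sample spread, which may be technical.

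The Hippo pathway is a chain of kinases that restrains growth. Stk3 and its relative Stk4 (the MST kinases) activate Lats1 and Lats2, which phosphorylate the coactivators YAP (Yap1) and TAZ (Wwtr1) and keep them out of the nucleus. Unphosphorylated YAP and TAZ bind TEAD factors and switch on genes such as Ccn1, Ccn2 and Ankrd1, and in the ovary the pathway is known for its part in the activation and growth of follicles. Much of this control acts on the proteins, which RNA levels do not show.

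Total counts ran from 49554241 to 60749578 in PM2.5 libraries and from 47662338 to 51530427 in controls. Markers of granulosa cells (10 of 10 in the table) and of luteal and theca cells (9 of 9) were looked up, and none was at 0 in any library. Smooth muscle and stromal fibroblast markers met the same criterion, so it does not by itself identify ovary. Libraries numbered 3 lay at the ends of the granulosa list, whose summed level was 3839, 9464 and 10902 CPM in PM2.5 libraries 1 to 3 and 8333, 6177 and 1806 CPM in controls 1 to 3 (CPM, library-scaled counts with TMM factors). In bulk tissue, fewer cells of a type and less RNA per cell cannot be told apart. None of the 10 genes overlaps another gene in the table's coordinates, which come without a named genome build.

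No gene of the 10 passed the test between PM2.5 and control ovaries, while 3 had values in all PM2.5 libraries outside the control range. Ccn2 and Wwtr1 lay above it, with about 2.12-fold and 1.53-fold the control level, and Tead1 lay below it at 0.512-fold. For the kinases, Yap1, Ccn1, Amotl2 and Ankrd1 the groups overlapped. Of the 10 genes, 9 passed the filter of a mean of at least 0.5 FPKM (fragments per kilobase scaled to library size, the authors' per-length unit) and were tested, and Ankrd1 did not. After Benjamini-Hochberg adjustment of edgeR's quasi-likelihood p-values over 15303 genes, 0 of 9 had an adjusted p below 0.05, where 0.928% of all tested genes did. Without adjustment 3 of 9 had p below 0.05 (background 20.9%), 2 higher (background 9.17%) and 1 lower (background 11.7%). The ranges of the groups were apart in the same 3 genes, against 27.3% of all tested genes, of which 12.1% lay above and 15.2% below. The median log2 fold change was -0.03 over the 9 genes and 0.00 over all tested genes. DESeq2 called 2 of the 9, Ccn2 (adjusted p = 0.0104) and Wwtr1 (adjusted p = 0.0254), both higher, where it called 4.78% of all tested genes higher and 11.5% in either direction.

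**Figure D1:**
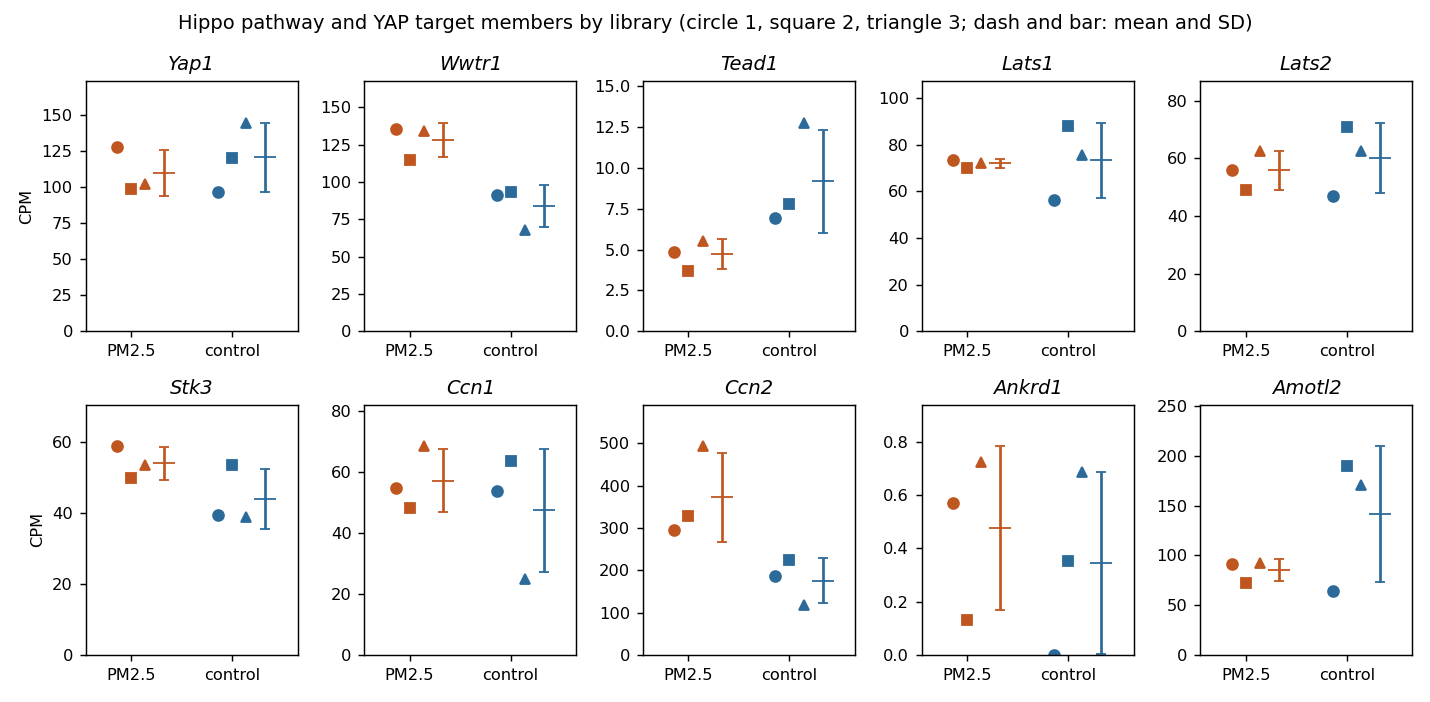
CPM of each of the 10 genes in each library, with PM2.5 libraries on the left of each panel and controls on the right, and a dash and bar for the mean and SD of 3 libraries. Wwtr1 and Ccn2 have all 3 PM2.5 libraries above all 3 controls, Tead1 has them below, and the other 7 genes overlap.

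Per length, Ccn2 was the most abundant of the genes in both groups. In FPKM, the PM2.5 ovaries had 122 ± 34.6 for Ccn2, 24.9 ± 2.27 for Wwtr1, 24.5 ± 4.46 for Ccn1, 21.4 ± 3.12 for Yap1, 20.1 ± 2.69 for Amotl2 and 17.6 ± 1.49 for Stk3 (SD, n = 3). The control ovaries had 57.6 ± 19.6 FPKM for Ccn2, 33.2 ± 16.3 for Amotl2, 23.4 ± 4.16 for Yap1, 20.5 ± 9.27 for Ccn1, 16.3 ± 3.30 for Wwtr1 and 14.3 ± 3.28 for Stk3 (SD, n = 3). Wwtr1 was thus the second of the genes in PM2.5 and below Amotl2, Yap1 and Ccn1 in controls. From Wwtr1 down to Stk3 each gene overlapped with its neighbour in PM2.5 libraries, so the order there is not resolved, and in controls the same held from Ccn2 down to Lats1. Ccn2 stood clear of all the others in PM2.5 libraries. Lats2 followed with 10.1 FPKM in PM2.5 and 10.9 FPKM in controls, and Lats1 with 9.15 FPKM in PM2.5 and 9.30 FPKM in controls. Tead1 had 1.22 ± 0.243 FPKM in PM2.5 and 2.36 ± 0.726 FPKM in controls, and Ankrd1 had 0.168 FPKM in PM2.5 and 0.121 FPKM in controls.

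The kinases at the head of the chain showed no resolved difference. Stk3, on chromosome 7 from 66052345 to 66323233, had 58.7, 49.6 and 53.3 CPM in PM2.5 libraries 1 to 3, against 39.5, 53.6 and 38.7 CPM in controls 1 to 3. Control 2 lay among the PM2.5 values, and the other controls lay below them. The log2 fold change of Stk3 was 0.29 ± 0.17 (SE), with a 95% interval from -0.12 to 0.70 (edgeR adjusted p = 0.370). Lats1, on chromosome 1 from 2160411 to 2193640, had 73.6, 70.0 and 72.4 CPM in PM2.5 libraries, against 56.1, 88.1 and 75.7 CPM in controls. The PM2.5 libraries lay close together inside the control range, with an SD of 1.80 CPM against 16.1 CPM in controls. The interval of the Lats1 log2 fold change ran from -0.46 to 0.41 around -0.03. Lats2, on chromosome 15 from 31825092 to 31877220, is itself a YAP target as well as an inhibitor of YAP. It had 56.1, 49.1 and 62.6 CPM in PM2.5 and 46.9, 71.0 and 62.7 CPM in controls, again with the PM2.5 values inside the control range, and its interval ran from -0.56 to 0.34 around -0.11.

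Amotl2, an angiomotin-like scaffold that holds YAP at cell junctions and is also one of its target genes, was uneven among the controls. It lies on chromosome 8 from 103302992 to 103318910. PM2.5 libraries 1 to 3 had 91.3, 72.3 and 92.7 CPM, against 64.0, 190.1 and 171 CPM in controls 1 to 3. Controls 2 and 3 stood above every PM2.5 library and control 1 stood below them. The log2 fold change was -0.73 ± 0.38 (edgeR adjusted p = 0.322, interval from -1.64 to 0.18). Without control 1 it was -1.08, and edgeR gave an adjusted p of 0.114 (0.000988 unadjusted), and without control 2 it was -0.46. With any other single library than control 1 left out, edgeR's adjusted p lay between 0.386 and 0.600. Immediate early genes, which respond within minutes to a stimulus, followed the same order among the controls. Their summed level (19 of 21 listed genes in the table) was 1351, 827 and 920 CPM in PM2.5 libraries, against 1278, 5211 and 1877 CPM in controls. Their part in the Amotl2 values was not tested.

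Of the coactivator messages, that of TAZ had group ranges apart, as 27.3% of all tested genes did, and that of YAP did not. Yap1, on chromosome 8 from 5095722 to 5167010, had 128, 98.7 and 102 CPM in PM2.5 libraries 1 to 3 and 96.9, 120.3 and 145 CPM in controls 1 to 3, and the groups overlapped (log2 fold change -0.14 ± 0.19, interval from -0.59 to 0.32, edgeR adjusted p = 0.719). Wwtr1, which encodes TAZ and lies on chromosome 2 from 141648108 to 141766968, reached 135, 115 and 134 CPM with PM2.5, against 91.1, 93.1 and 67.5 CPM in controls. Every PM2.5 library exceeded every control, and control 3 was the lowest. The log2 fold change of Wwtr1 was 0.61 ± 0.17, with an interval from 0.21 to 1.01, and edgeR gave an unadjusted p of 0.00897 and an adjusted p of 0.130. Without control 3 it was 0.48, and without both libraries numbered 3 it was 0.45.

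The ratio of Wwtr1 to Yap1 within a library, which does not depend on how libraries are scaled, was 1.05, 1.16 and 1.31 in FPKM in PM2.5 libraries 1 to 3 and 0.936, 0.772 and 0.465 in controls 1 to 3. TAZ messages therefore exceeded YAP messages in all 3 PM2.5 libraries and were below them in all 3 controls. On the log2 scale the ratio averaged 0.22 ± 0.15 in PM2.5 and -0.53 ± 0.52 in controls, a difference of 0.75. A two-sided exact permutation test gave p = 0.1, the smallest that 3 against 3 libraries allow, and 0.233 after adjustment over 7 ratios. The 7 ratios were chosen after the values were seen. Without control 3 the Wwtr1 to Yap1 difference was 0.46. The summed FPKM of both genes was 51.2, 41.4 and 46.0 in PM2.5 libraries and 36.4, 43.0 and 39.5 in controls, and these ranges overlapped.

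**Figure D2:**
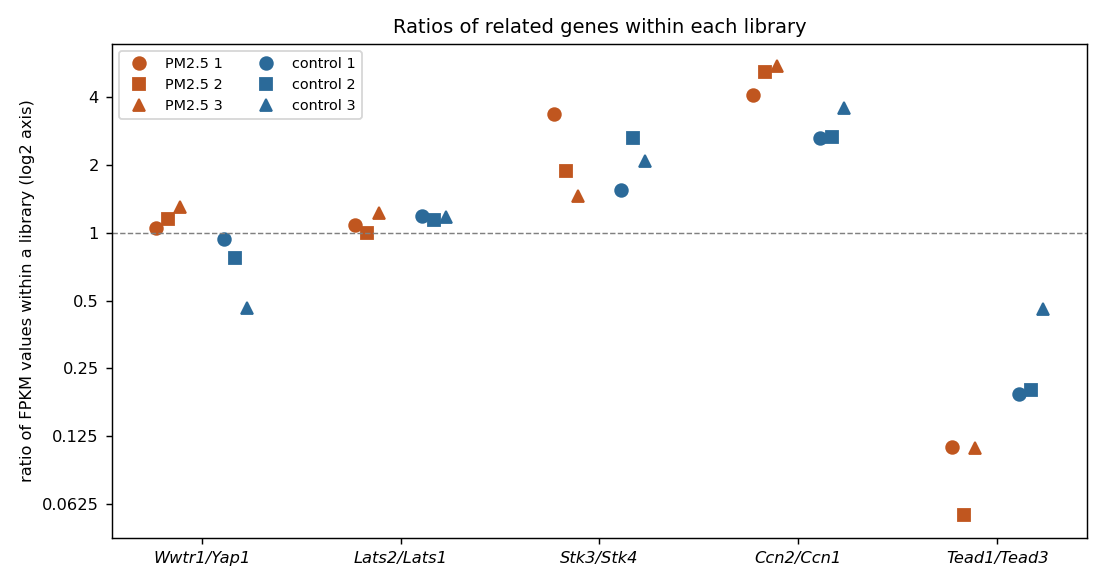
Ratios of FPKM values of related genes within each library on a log2 axis, PM2.5 libraries left and controls right in each pair, with a dashed line at equal levels. Wwtr1/Yap1 and Ccn2/Ccn1 are higher and Tead1/Tead3 is lower in each PM2.5 library than in each control, while Lats2/Lats1 and Stk3/Stk4 overlap.

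The Lats2 to Lats1 ratio held within a narrow band, at 1.08, 0.998 and 1.23 in PM2.5 libraries and 1.19, 1.15 and 1.18 in controls. Stk3 exceeded its relative Stk4 in all libraries, with ratios of 3.37, 1.88 and 1.45 in PM2.5 and 1.55, 2.64 and 2.08 in controls. Neither ratio separated the groups (exact permutation p = 0.4 and 1, each two-sided). Amotl2 made up between 92.1 and 96.4% of the summed FPKM of the angiomotins in PM2.5 libraries and between 92.6 and 95.8% in controls. Its relatives Amot and Amotl1 contributed the rest, so Amotl2 carried most of the angiomotin message in both groups.

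Among the DNA-binding partners, Tead1, on chromosome 1 from 166792628 to 167003369, had 4.87, 3.71 and 5.53 CPM in PM2.5 libraries 1 to 3, against 6.95, 7.82 and 12.8 CPM in controls 1 to 3. All PM2.5 libraries lay below all controls, and control 3 was the highest. The log2 fold change of Tead1 was -0.96 ± 0.35, with an interval from -1.78 to -0.14, and edgeR gave an unadjusted p of 0.0273 and an adjusted p of 0.189. Without control 3 it was -0.65, and edgeR's unadjusted p was 0.1005. Tead3, a TEAD factor that binds the same kind of site, lay the other way, with 33.2, 50.8 and 38.2 CPM in PM2.5 and 27.5, 29.9 and 21.3 CPM in controls (log2 fold change 0.63 ± 0.22, edgeR adjusted p = 0.178). The Tead1 to Tead3 ratio in FPKM was 0.112, 0.0556 and 0.111 in PM2.5 libraries and 0.193, 0.200 and 0.459 in controls (exact permutation p = 0.1 two-sided, the smallest possible, and 0.233 adjusted over 7 ratios).

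Tead1 was a minor part of the TEAD messages in these ovaries. Its share of the summed FPKM of Tead1 to Tead4 was 5.61, 2.96 and 4.40% in PM2.5 libraries and 7.13, 7.11 and 14.9% in controls. Tead2 and Tead3 made up most of the rest, with mean shares of 44.4 and 47.6% in PM2.5 and 50.3 and 35.0% in controls. Tead2 had a log2 fold change of 0.04 ± 0.29 and Tead4 one of -0.30 ± 0.42, and neither passed. Vgll4, which competes with YAP for TEAD factors, had 14.7, 11.3 and 11.9 CPM in PM2.5 libraries, against 19.9, 24.5 and 26.9 CPM in controls. Its log2 fold change of -0.91 ± 0.21 did not pass with edgeR (adjusted p = 0.0971) but did with DESeq2, and it overlaps Tamm41 on the same strand, so reads may be split between them. Vgll1, Vgll2 and the target gene Foxf2 were not analysed here.

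**Figure D3:**
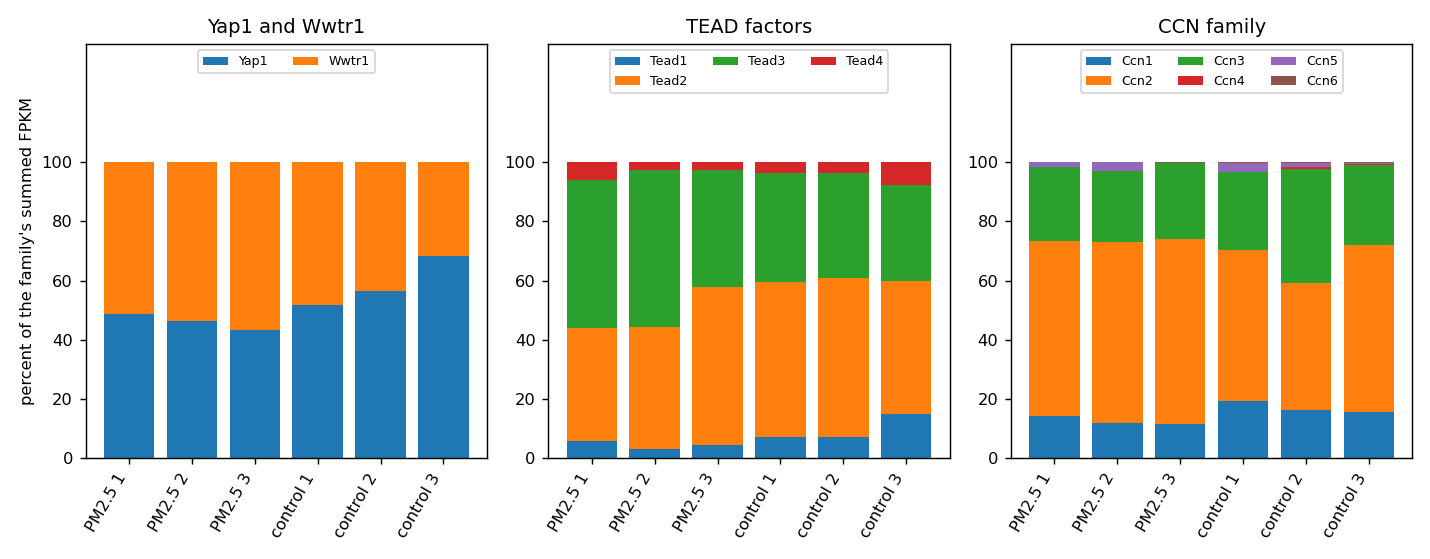
Share of each gene in the summed FPKM of its family in each library, in percent, for Yap1 and Wwtr1, the TEAD factors and the CCN family, with PM2.5 libraries left of controls. Wwtr1 passes 50% in the 3 PM2.5 libraries, Tead1 is below 6% there, and Ccn2 makes up 58.9 to 62.8% of the CCN messages there, against 43.0 to 56.2% in controls.

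Of the target genes, Ccn2, a matricellular protein also known as connective tissue growth factor, was the most abundant and had the largest positive fold change of the 9 tested genes. It lies on chromosome 1 from 20802199 to 20805734. PM2.5 libraries 1 to 3 had 295, 328 and 493 CPM, against 186, 224 and 117 CPM in controls 1 to 3. The groups did not overlap, with PM2.5 library 3 the highest and control 3 the lowest. The log2 fold change was 1.08 ± 0.30, with an interval from 0.37 to 1.79, and edgeR gave an unadjusted p of 0.00871 and an adjusted p of 0.129. Without both libraries numbered 3 it was 0.61, with an adjusted p of 0.275, and the direction held. The libraries with the highest and lowest Ccn2 were also those with the highest and lowest granulosa list, but the order between them differed. PM2.5 library 1 had 3839 CPM of that list, against 8333 and 6177 CPM in controls 1 and 2, and more Ccn2 than both. Of the 10 granulosa markers, 9 had positive log2 fold changes and 1, Cyp19a1, a negative one. Inha alone gave 6138 CPM of the sum in PM2.5 library 3. The part of the granulosa list in the Ccn2 values was not tested. Smooth muscle and pericyte markers (8 of 8 in the table, none at 0) summed to 2189, 3679 and 865 CPM in PM2.5 libraries, against 1096, 1072 and 841 CPM in controls. Of these markers, 5 had positive log2 fold changes and 3, Rgs5, Notch3 and Pdgfrb, had negative ones. PM2.5 libraries 1 and 2 lay above the control range of that list, and PM2.5 library 3, with the most Ccn2, lay inside it. Stromal fibroblast markers (7 of 7, none at 0) summed to between 1752 and 2157 CPM in PM2.5 and between 1575 and 2417 CPM in controls. The part of both lists in the Ccn2 values was not tested.

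Ccn1, a CCN family protein also known as Cyr61, did not separate the groups. It lies on chromosome 2 from 234562408 to 234565484 and had 54.9, 48.1 and 68.5 CPM in PM2.5 libraries, against 53.7, 63.9 and 25.04 CPM in controls. Control 3 stood alone below the other 5 libraries, which overlapped. The log2 fold change of Ccn1 was 0.27 ± 0.34 (interval from -0.54 to 1.07, edgeR adjusted p = 0.690), and without control 3 it was -0.04. The ratio of Ccn2 to Ccn1 in FPKM was 4.11, 5.20 and 5.49 in PM2.5 libraries and 2.64, 2.67 and 3.58 in controls. On the log2 scale the ratio averaged 2.29 ± 0.22 in PM2.5 and 1.55 ± 0.25 in controls, a difference of 0.74 that ranged from 0.66 to 0.88 with any single library left out (exact permutation p = 0.1 two-sided, the smallest possible, and 0.233 adjusted over 7 ratios). The other well expressed member of the CCN family was Ccn3, with 66.1, 66.9 and 105 CPM in PM2.5 and 50.7, 106 and 29.9 CPM in controls, which did not pass (edgeR adjusted p = 0.691), nor did Ccn5 at 0.32 ± 1.01 on the log2 scale.

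Ankrd1, a nuclear ankyrin repeat protein of striated muscle and a common reporter of YAP activity, was barely detected. It lies on chromosome 1 from 233815851 to 233824410. It had 30, 8 and 36 counts in PM2.5 libraries 1 to 3 and 0, 18 and 34 counts in controls 1 to 3. A count of 0 in control 1 allows up to 3 counts, or 0.0626 CPM, which covers counting error only. Both groups spanned a similar range, and without the filter the log2 fold change was 0.46 ± 1.37 (edgeR adjusted p = 0.895), so no difference was resolved. Of the striated muscle markers, 9 of 10 were in the table and summed to between 105 and 421 CPM in PM2.5 and between 50.2 and 201 CPM in controls, with Tnni2 and Myh2 at 0 in some libraries. Myh6, a cardiac myosin heavy chain, gave between 56.8 and 389 CPM of that sum in PM2.5 and between 17.1 and 160 CPM in controls. Myl1, a muscle myosin light chain, fell, with 0.0951, 0.329 and 0.241 CPM in PM2.5 libraries, against 4.17, 5.30 and 14.4 CPM in controls (log2 fold change -5.14 ± 0.74, edgeR adjusted p = 0.0434), and its call was lost when any single library was left out. Of the 6 tested striated muscle markers, 4 had positive and 2 negative log2 fold changes, with a median of 0.82. The part of these markers in the Ankrd1 counts was not tested.

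The rest of the pathway was read from lists of 80 other genes, of which 77 were in the table and 75 were tested. With edgeR, 1 of the 75 passed over all genes and was lower (0.738% of all tested genes were), and 14 of 75 had an unadjusted p below 0.05, or 18.7% against 20.9% of all tested genes. The median log2 fold change was 0.03. The gene that passed was Igfbp3, which encodes a binding protein for insulin-like growth factors and is a published YAP target. Igfbp3 fell, with 22.3, 39.3 and 23.9 CPM in PM2.5 libraries 1 to 3, against 100.5, 210.2 and 297 CPM in controls 1 to 3 (log2 fold change -2.83 ± 0.44, edgeR adjusted p = 0.0463). All PM2.5 libraries lay below all controls. The call was lost when any single library was left out.

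The signs of the tested genes of the published target list were mixed. With Igfbp3, 9 of 20 had positive and 11 negative log2 fold changes, with a median of -0.08. An unadjusted edgeR p below 0.05 was found for 4 of the 20, or 20% against 20.9% of all tested genes. All 4 were lower, as were 11.7% of all tested genes at that threshold. Myof, a membrane repair protein, had -0.41 ± 0.15, and Gadd45a, a stress-inducible growth arrest gene, had -0.93 ± 0.36, with 281, 325 and 305 CPM in PM2.5 libraries, against 459, 341 and 929 CPM in controls. For both, the highest PM2.5 library lay under the lowest control, and neither passed (edgeR adjusted p = 0.187 and 0.216).

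None of the 17 other kinases and adaptors passed with edgeR or with DESeq2, and 3 had an unadjusted edgeR p below 0.05, or 17.6% against 20.9% of all tested genes. They had 9 positive and 8 negative fold changes and a median log2 fold change of 0.04. Stk38l, a kinase of the LATS family, had 27.8, 24.9 and 31.5 CPM in PM2.5 and 32.4, 52.5 and 44.3 CPM in controls (-0.62 ± 0.21, edgeR adjusted p = 0.175). Taok2, a kinase that can act above the MST kinases, had -0.49 ± 0.18 on the log2 scale. Wwc1, the scaffold KIBRA that activates LATS, had 26.6, 25.6 and 2.95 CPM in PM2.5 libraries, against 6.34, 5.77 and 3.28 CPM in controls, so its difference came from PM2.5 libraries 1 and 2 (1.84 ± 0.76, edgeR adjusted p = 0.231).

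Of 18 junction and cadherin inputs and YAP binding partners none passed with edgeR and 1, Crb3, with DESeq2, which called 11.5% of all tested genes. An unadjusted edgeR p below 0.05 was found for 2 of the 18, or 11.1% against 20.9% of all tested genes, and 12 fold changes were positive and 6 negative around a median of 0.13. Crb3, an apical polarity protein of epithelia, was uneven in the same way as Wwc1, with 5.19, 4.62 and 0.904 CPM in PM2.5 and 0.939, 0.975 and 0.504 CPM in controls (2.15 ± 0.70, edgeR adjusted p = 0.163). Crb3 overlaps Slc25a23 on the opposite strand, and strand use in the counting is not given. Ovarian surface epithelium markers (7 of 8 in the table, none at 0) summed to 373, 476 and 185 CPM in PM2.5 libraries, against 79.9, 157 and 51.1 CPM in controls. The 6 tested ones had positive log2 fold changes, but Upk3b was highest in control 2 (3.61 CPM) and Wt1 in PM2.5 library 3 (144 CPM). Lhx9, not tested, averaged 0.730 CPM in PM2.5 and 2.41 CPM in controls. Oviduct epithelium markers (3 of 5 in the table, none at 0) summed to 201, 208 and 55.0 CPM in PM2.5 libraries, against 53.1, 97.9 and 9.03 CPM in controls. All 3 had positive log2 fold changes, but Cdh1, at 0.16, was highest in control 2 (67.6 CPM). Adipocyte markers (5 of 5, with Lep and Cidec at 0 in some libraries) summed to 47.0, 58.2 and 17.3 CPM in PM2.5, against 8.97, 15.5 and 11.8 CPM in controls. Adipoq gave 33.3, 33.7 and 2.59 CPM of that sum in PM2.5 libraries 1 to 3. Of the 3 tested adipocyte markers, 2 had positive log2 fold changes and 1, Plin1, had -0.04. The sums of all 3 lists, though not each marker, were highest in PM2.5 libraries 1 and 2, as Wwc1 and Crb3 were. The part of these lists in both genes was not tested. Fat1, an atypical cadherin, had 0.52 ± 0.21, and Amotl1, the other angiomotin-like scaffold, had -0.81 ± 0.36.

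Genes of the actin cytoskeleton and of SRF, which answer to the same mechanical cues as YAP, were split into 6 positive and 9 negative, the median was -0.14, and none of 15 passed with edgeR or DESeq2. An unadjusted edgeR p below 0.05 was found for 3 of them, near the 20.9% of all tested genes. Flna, which crosslinks actin filaments, had 665, 965 and 700.5 CPM in PM2.5 libraries, against 555, 601 and 459.6 CPM in controls (0.53 ± 0.21, edgeR adjusted p = 0.216). Tpm1, a tropomyosin, had 318, 604 and 198 CPM in PM2.5 and 205, 205 and 172 CPM in controls, highest in the PM2.5 libraries that had most smooth muscle marker RNA, whose part was not tested. Cdc42ep2, which overlaps Pola2 on the same strand, had -0.69 ± 0.24.

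**Figure D4:**
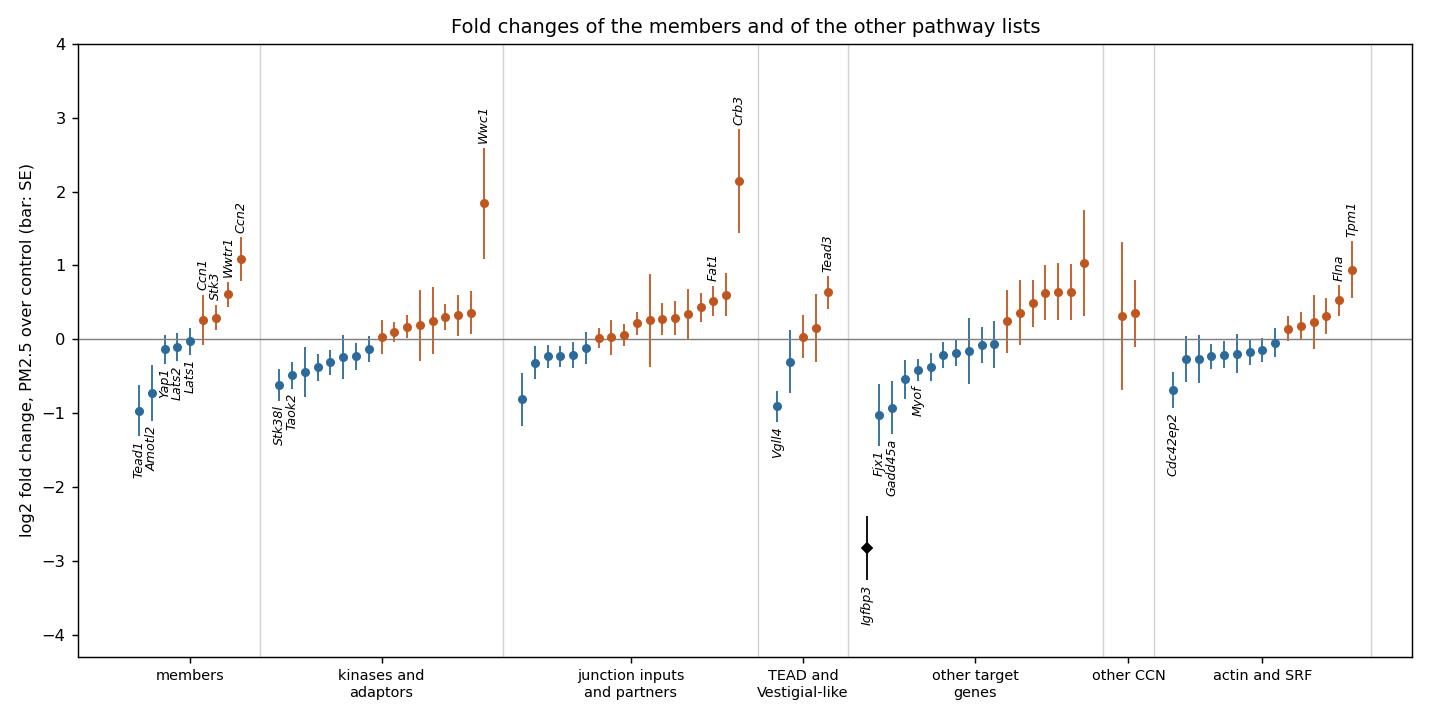
Log2 fold change of PM2.5 over control with its SE for the 9 tested members and the 75 other tested genes, in order of size within each list. The black diamond is Igfbp3, which passed after adjustment, and names are given for members and for genes with an unadjusted p below 0.05.

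Immediate early genes, a list that shares stimuli with Ccn1 and other YAP targets, had 17 of 19 tested genes negative. Their median log2 fold change was -2.06, and of all 15303 tested genes 7594 were negative. The summed level of the list overlapped between the groups, with 1351 CPM in PM2.5 library 1 and 1278 CPM in control 1. It was highest in control 2, at 5211 CPM. Of the 19, 2 passed, both lower (0.738% of all tested genes were). Fos and Ier3 fell (edgeR adjusted p = 0.0434 for each), with log2 fold changes of -2.82 ± 0.40 and -1.53 ± 0.19, and Fosb at -4.12 ± 0.82 did not pass. With single libraries left out, Fos passed in 1 of 6 fits, that without control 2, and Ier3 in 0 of 6. Ccn2, at 1.08 on the log2 scale, had the opposite sign, and the sign of Ccn1 was not resolved.

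The table's own annotation of the Hippo signaling map, used after the values were seen, held 152 genes, and 132 were tested. Of these, 36, or 27.3%, had an unadjusted p below 0.05 (background 20.9%), and 2 passed over all genes, both lower (0.738% of all tested genes were). Nkd2, an inhibitor of Wnt signaling, fell, with 13.2 CPM in PM2.5 and 82.9 CPM in controls (log2 fold change -2.66 ± 0.15, edgeR adjusted p = 0.00843), and Tgfb1, which encodes a transforming growth factor, fell, with 23.0 CPM in PM2.5 and 84.3 CPM in controls (-1.87 ± 0.28, adjusted p = 0.0442). With single libraries left out, Nkd2 passed in 4 of 6 fits and missed without PM2.5 library 2 or control 1, and Tgfb1 passed in 0 of 6. The map's median log2 fold change was 0.16. It holds many Wnt, BMP and TGF-beta genes beside the Hippo kinases.

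The genes whose levels over the 6 libraries were most like those of 4 of the genes were named by Pearson's r of log2 CPM among 13016 named genes, as a description over 6 libraries. For Yap1 they were Psme4 (0.989), Pigg (0.985) and Rnf150 (0.984). For Ccn1 they were Hnrnpr-ps2 (0.998), Fkbp6 (0.997) and Rhobtb3 (0.995). For Ccn2 they were Tcf7l1 (0.997), Igsf11 (0.996) and Supt16h (0.996), each with a smaller log2 fold change than Ccn2, between 0.48 and 0.55. For Ankrd1 they were Crispld2 (0.975), Zfp326 (0.972) and Prrc2c (0.968). With 6 libraries high values are common, and 736 genes had r above 0.9 with Ccn2 and 199 with Yap1.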

How the data were processed

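Ovary RNA from 3 PM2.5 and 3 control libraries was poly(A)-selected, made into dUTP libraries and sequenced from both ends, per the labels' protocols. Per the submitters' processing notes, edgeR, DESeq2, StringTie 2.1.6, HISAT2 2.2.1 and cutadapt 1.9 were used, with no roles given. Build, annotation and strand setting of the counting are not stated there or in the labels. Per the file headers, the authors deposited whole counts and FPKM for each gene in each library. Of counts from 1 to 20, 31.8 to 33.9% were multiples of 4 (25% by chance), for which no reason is given. The organism field names the mouse, but titles and gene identifiers are of the rat, so the mouse reference was not used here and no sequences are shown.

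edgeR 4.0.16 (R 4.3.3) was run on the counts with TMM factors, glmQLFit and glmQLFTest over genes that averaged 0.5 FPKM or more. The test is two-sided with Benjamini-Hochberg adjustment at 0.05. The SE is the log2 fold change over the square root of F, and 95% intervals use edgeR's degrees of freedom. FPKM served for levels, ratios and the filter. The pipeline was tested on simulated data, where it recovered 14% of 2-fold, 50% of 4-fold, 90% of 8-fold and 98% of 16-fold changes. The planted genes were drawn at random, and 8 of 134 calls were false. Planted 2-fold changes were thus mostly missed, which does not show whether the Ccn2 difference is a missed change. The genes and lists were chosen with earlier results of these data known. Named genes are the 10, and in each other pathway list those that passed and the 3 with the smallest p, the relatives Stk4, Tead2, Tead3, Tead4, Amot and Amotl1, and those of the likeness rule given above. From the Hippo map and the marker lists, added beside these, genes were named after their values were seen. Alternatives were other scalings and filters, robust estimation, DESeq2 1.42.0, limma 3.58.1 on log2(FPKM + 1) and log2(FPKM + 0.1), leaving out single libraries and a replicate block. Libraries of a group differed far beyond counting noise (chi-square per degree of freedom of at least 117), so none was treated as a copy of another, which does not show that they come from separate animals.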

Additional observations from a re-analysis of the deposited data

How the results depend on the processing

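Of the 10 genes 0 were called in all settings run except DESeq2, which called 2, and of the 75 others 1 was called, 0 without a filter, 0 with filterByExpr, 0 with the replicate block, 3 with DESeq2 (Crb3, Vgll4 and Igfbp3) and 0 with any 1 library left out. Over all genes the count was 142, 8 without a filter, 87 with filterByExpr, 1767 with DESeq2, 1 with the replicate block and 0 to 7 with a library left out. Leaving out both libraries numbered 3, chosen after the data were seen, gave 56 genes over all, 0 of the 10 and 0 of the others. The cause was not tested. Same-numbered libraries deviated together at -0.179, 0.16 and 0.092, and no label says that a number marks a pair. Wwtr1, Tead1, Ccn2, Stk3 and Amotl2 kept their sign in all settings. Lats1 was 0.00 with limma at both pseudocounts (0.00199 and 0.00469) and from -0.18 to 0.13 with a library left out, Lats2 from -0.26 to 0.0307, Yap1 from -0.27 to 0.02 and Ccn1 from -0.04 to 0.54. Without both libraries numbered 3, Yap1 was 0.068, Lats1 0.00235 and Ccn1 -0.18. Tead1 and Ankrd1 rest on the fewest counts.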
